A study of Mus musculus with 6 samples.

Results

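The comparison set the iErk1; Erk KO line of mouse embryonic stem cells (ESCs), cultured with doxycycline (Dox), against untreated wild-type KH2 ESCs. Both samples belong to a series of 6 libraries of polyA RNA, 1 library per group, on a C57BL/6 x 129 background. KH2 is an ESC line built to carry Dox-inducible transgenes. In the engineered line the Erk genes are labelled as knocked out and an inducible Erk1 is present, so that Dox keeps Erk1 on. The other libraries were wild-type KH2 with the Mek inhibitor PD0325901 for 48 hours, and the engineered line without Dox for 48 hours, for 96 hours, or for 96 hours with PD0325901 over the final 48. The 2 samples compared were chosen by these labels alone, and 18857 genes had reads in at least 1 of the 6 libraries. The labels do not give the number of clones, the Dox dose, the culture medium, the use of feeder cells or how the Erk alleles were disrupted. Line and Dox changed together in this comparison and cannot be told apart, and no second library exists for either group. Each ratio therefore compares 2 libraries, and its interval covers counting error only.

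Erk kinases, among them Erk1 (gene Mapk3), are the last kinases of a cascade that runs from receptor tyrosine kinases through Ras, Raf and Mek. In ESCs, Fgf4 is the best known ligand of this cascade, and Erk activity prepares naive cells for leaving the self-renewing state. Erk signalling is usually read from fast transcriptional targets such as Egr1 and Fos, and from feedback inhibitors such as the Dual-specificity phosphatases and Sprouty proteins. A separate response appears in the results: the hypoxia response, in which the factor Hif1 binds a short DNA element and turns on glycolysis enzymes, glucose transport and mitochondrial turnover.

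The depth of KH2 was 9.09 and that of the line with Dox 9.41, in units of 1e6 uniquely counted reads, and the 6 libraries spanned 9.05 to 9.95. The 2 KH2 libraries had reads on 17403 and 17378 genes, and the 4 libraries of the line on 16042 to 16857. Levels are given as RPKM, which scales a gene's reads to its length and to the library total. A gene passed the size rule when the log2 ratio of RPKM plus 0.5 was at least 1 in size, the higher library had an RPKM of at least 1, at least 20 reads were counted over both libraries, and the exact 95% Clopper-Pearson interval of the read ratio excluded 1. The pseudocount makes log2 ratios of low genes smaller than their read folds. The genes that define ESCs were abundant in both libraries: Pou5f1 read 769 RPKM in KH2 and 556 in the line with Dox, Sox2 166 and 207, and Nanog 122 and 105.

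The balance of higher and lower genes depended on how the libraries were scaled. With library totals, 12421 genes could be tested, 343 passed as higher in the line with Dox (2.76%) and 2662 as lower (21.4%), so that 88.6% of the passing genes were lower. With TMM composition scaling, which moved every ratio up by 0.46 log2, 1150 were higher (9.37%) and 1331 lower (10.8%), 20.2% in either direction, and the lower share was 53.6%. The ratios also changed with the GC content of the transcript. The median log2 ratio was 0.01 in the decile of genes with the least GC and -0.87 in the decile with the most, and the Spearman rho over genes was -0.37. Genes within 1 library share its preparation, so this rho is a description. Between libraries of 1 genotype the same rho was 0.08 (PD0325901 in KH2) and 0.05 (48 hours without Dox). Centring each gene on the median of its GC decile left 754 higher (6.19%) and 1381 lower (11.3%). Under all 3 scalings 328 of 11979 genes were higher (2.74%) and 1082 lower (9.03%), and these are called robust to scaling below. The part of GC content in the differences was not tested beyond this centring. The files of the 4 libraries of the line also lack the gene symbol column that the 2 KH2 files carry, and file set and line cannot be told apart. For some genes below, all 4 libraries of the line lay on 1 side of both KH2 libraries. The share of all genes separated in this way was not counted, so such a separation is a description.

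A second pair of libraries set the line against wild type without sharing a library with the first pair: the line without Dox for 96 hours with PD0325901, over KH2 with PD0325901. There, 472 of 12642 genes were higher (3.73%) and 1975 lower (15.6%) with library totals. With TMM these shares were 7.73% and 8.81%, and after GC centring 5.69% and 8.39%. List medians given for the second pair are over members tested in the first pair, and its all-gene median is over all genes tested in the second. Across the 12085 genes tested in both pairs the log2 ratios correlated with r = 0.69 (Pearson) and rho = 0.71 (Spearman), a description over genes that share the 2 cell lines. Of the 343 genes higher in the first pair, 132 (38.5%) were higher in the second, which is 28.0% of the second list. Of the 2662 lower genes, 1206 (45.3%) were lower in the second, which is 61.1% of that list. A difference common to both pairs was tested over the 4 libraries by the quasi-likelihood test of edgeR. The fit took the pair as a block and TMM scaling, and p-values were adjusted by Benjamini-Hochberg. Of 14672 genes, 1716 were higher in the line (11.7%) and 1113 lower (7.59%) at an adjusted p under 0.05, with 1 residual degree of freedom. Without the block for the pair edgeR called 0 genes higher and 0 lower, although 3857 had a raw p under 0.05 before adjustment, and with library totals in place of TMM 872 were higher and 2821 lower. The adjusted p-values given for single genes come from the fit with the block and TMM, and they measure how alike 2 pairs of single libraries were, since no group had a replicate.

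**Figure D1:**
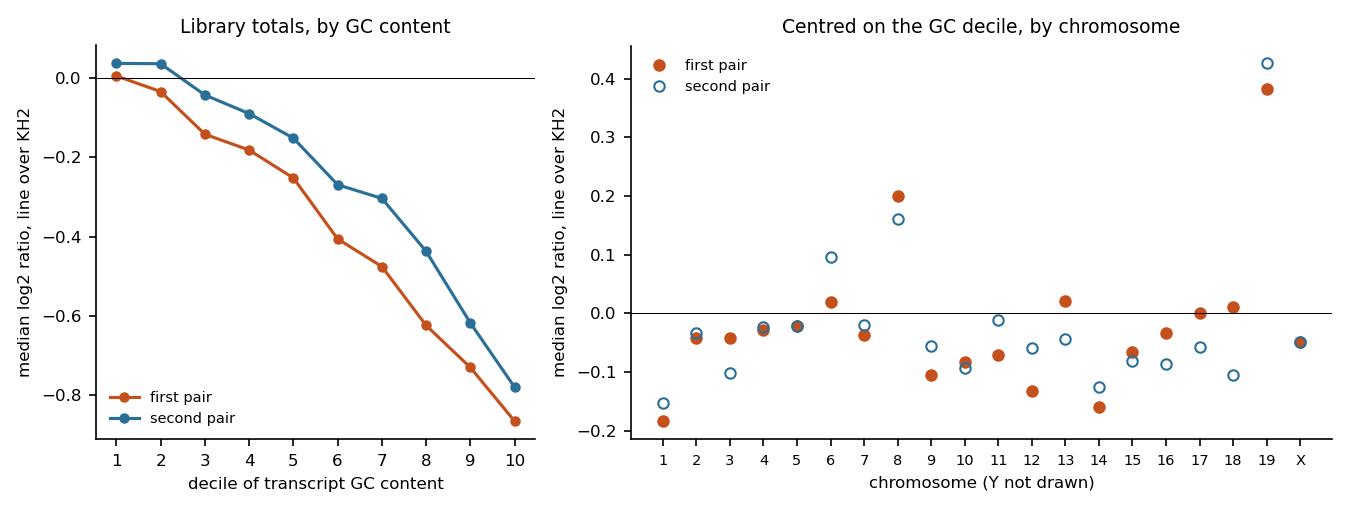
Left, median log2 ratio of the line over KH2 with library totals (y axis) by decile of transcript GC content (x axis) in the first pair (line with Dox over untreated KH2) and the second pair (96 hours without Dox, both with PD0325901); both go down, from 0.01 to -0.87 and from 0.04 to -0.78. Right, median log2 ratio after centring on the GC decile (y axis) by chromosome (x axis), where chromosome 19 stands highest in both pairs at 0.38 and 0.43.

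Mapk3 was lower in the line. It read 56.4 RPKM in untreated KH2, 52.8 in KH2 with PD0325901, 14.8 in the line with Dox, and 6.86, 6.75 and 9.18 in the line without Dox for 48 hours, for 96 hours, and for 96 hours with PD0325901. All 4 libraries of the line stood below both KH2 libraries, and the library with Dox stood highest of the 4. The 246 reads with Dox against 909 in KH2 made Mapk3 3.83-fold lower (95% interval 3.32 to 4.42), with log2 ratios of -1.90 by totals, -1.45 by TMM and -1.19 after GC centring. In edgeR's common test the log2 fold change was -1.88 ± 0.23 (SE) for Mapk3, adjusted p = 0.0102. Reads remained on Mapk3 in the knockout line. The labels do not say which part of the allele was changed, and unique reads cannot be split between an inducible and an endogenous copy of Mapk3, so these levels check the labels only in part.

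Among 22 cascade genes that were not targeted, all tested, 1 was lower and none higher by totals. It was Map2k1, which encodes Mek1, at 88.4 RPKM in KH2 and 41.5 in the line with Dox, 2.13-fold lower (1.97 to 2.31). Its log2 ratio of -1.08 became -0.63 by TMM and did not pass there. Map2k2, encoding Mek2, read 32.8 and 19.5 and did not pass. Genes next to Mapk3, Rosa26 and Col1a1 were counted because engineering of an allele can alter genes beside it. Of 7 tested among 10 neighbours of Mapk3, 4 were lower by totals (Bola2, Coro1a, Ypel3 and Aldoa), beside 21.4% of all genes, and of these Coro1a alone passed under all 3 scalings. Of 8 tested around the Rosa26 locus 2 were lower, and of 3 around Col1a1 1 was, and none of these passed by TMM.

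**Figure D2:**
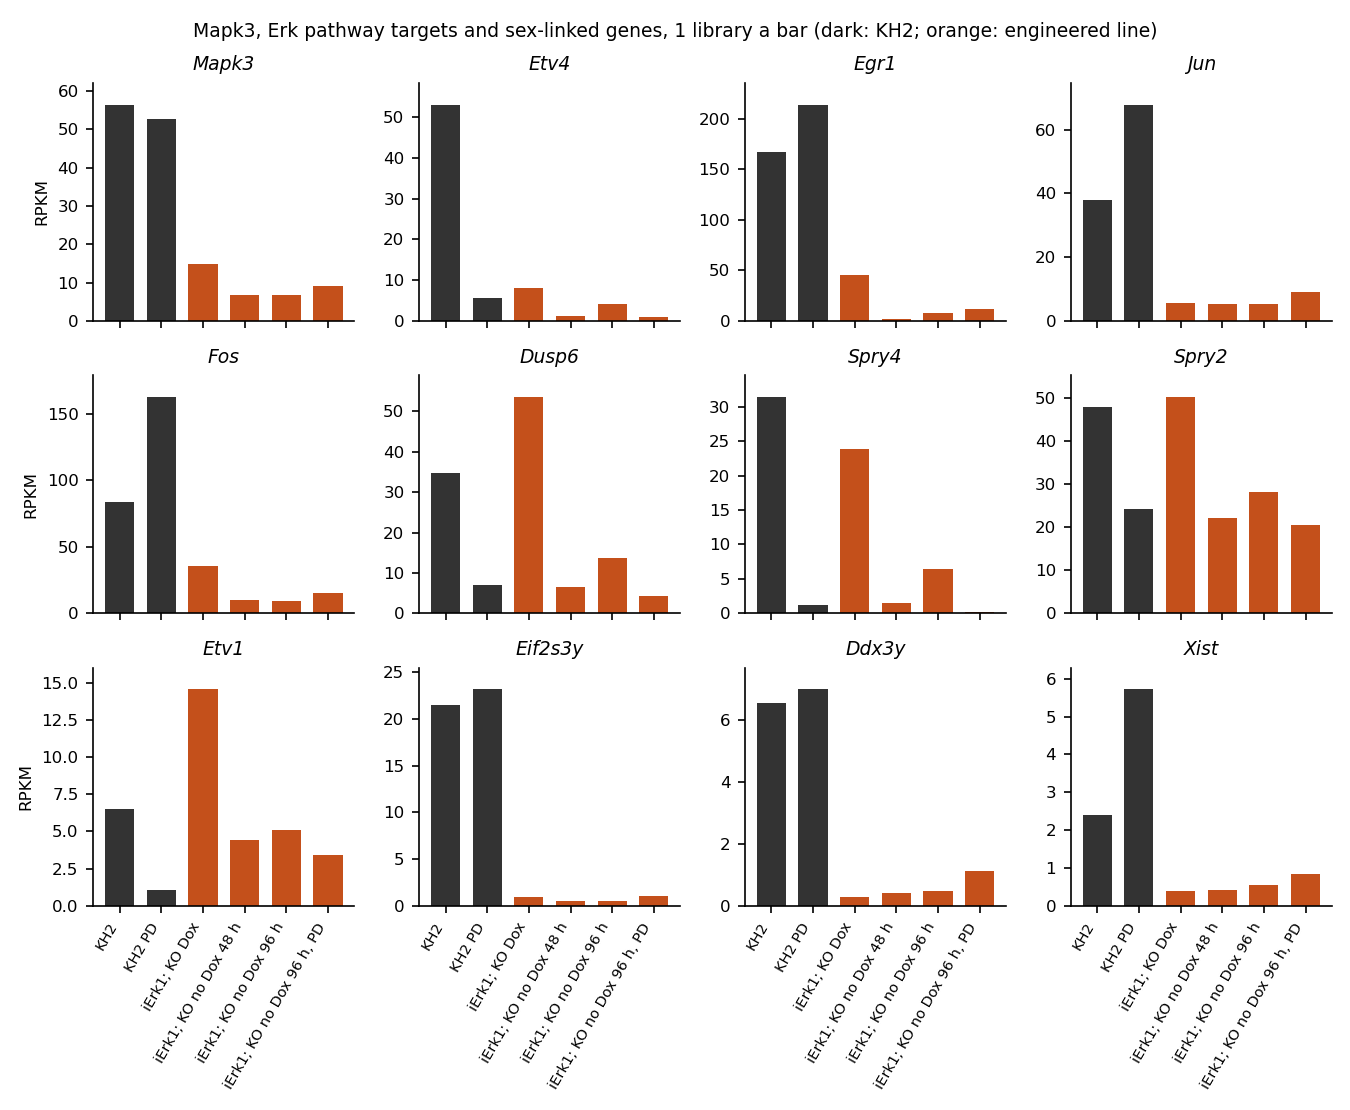
RPKM (y axes, each from 0) of Mapk3, Erk pathway targets and sex-linked genes in each of the 6 libraries (x axes), 1 bar a library, dark for KH2 and orange for the engineered line. Mapk3 lies between 6.75 and 14.8 in all 4 libraries of the line against 52.8 and 56.4 in KH2, and Eif2s3y between 0.458 and 1.07 against 21.5 and 23.1.

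Erk targets split into groups in the line with Dox. Of 32 feedback and immediate target genes 31 could be tested; 2 were higher and 13 lower with library totals, with a median log2 ratio of -0.53 beside -0.37 over all genes. The lower members were 41.9% of those tested, beside 21.4% of all genes. Under all 3 scalings 2 were higher and 9 lower (29.0%, beside 9.03%). The 9 were Etv4, Jun, Ier3, Dusp2, Ier5, Egr1, Fosb, Fosl1 and Egr2.

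Etv4, a transcription factor of the PEA3 group induced by Fgf signalling, read 53.1 RPKM in untreated KH2 and 8.14 in the line with Dox. KH2 with PD0325901 read 5.72, and the line without Dox 1.19 at 48 hours, 4.26 at 96 hours and 0.914 with PD0325901. The level with Dox therefore lay nearer to inhibited than to untreated wild type, 6.52-fold below the latter (5.57 to 7.68). Egr1, an immediate early zinc finger factor, read 168 in KH2, 214 with PD0325901, 45.7 in the line with Dox, and 2.11, 7.95 and 12.3 without it. It was 3.67-fold lower with Dox (3.45 to 3.90), and it stood lower still in the 3 libraries without Dox. Jun, a subunit of the AP-1 factor, behaved otherwise, at 37.9 and 67.9 in the KH2 libraries and 5.70, 5.37, 5.26 and 9.13 in the 4 of the line. Jun was 6.65-fold lower with Dox (5.65 to 7.86), and no library of the line reached a KH2 value. Fos, the partner of Jun, read 84.0 in KH2, 163 in KH2 with PD0325901 and 35.8 in the line with Dox. It was 2.34-fold lower with Dox (2.15 to 2.56), and passed with library totals only. In KH2, PD0325901 went with higher Egr1, Jun, Fos and Ier3 (45.3 and 114), and with lower Etv4 and Dusp2 (2.02 and 1.49). Summed over the target list, RPKM was 1072 in untreated KH2 and 1161 with PD0325901. Whether the low level of these genes in the line reflects Erk activity was not tested.

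Several feedback genes and other targets did not pass as lower. Dusp6, the phosphatase that inactivates Erk, read 34.8 RPKM in KH2 and 53.6 in the line with Dox, and 6.45 and 13.7 without Dox for 48 and 96 hours. Its log2 ratio of 0.62 did not pass by totals and reached 1.07 by TMM. Spry4, a Sprouty inhibitor of receptor signalling, read 31.4 and 23.9, against 1.22 in KH2 with PD0325901 and 1.54 in the line without Dox for 48 hours. Spry2 read 47.9 and 50.2, Etv5 80.6 and 49.3, Ccnd1 (cyclin D1) 49.4 and 51.2, and Myc 19.4 and 31.9, none passing by totals; the log2 ratio of Myc was 0.70 by totals and 1.15 by TMM, where it passed as higher. By totals Dusp6, Spry2, Ccnd1 and Myc thus read above their KH2 level in the line with Dox. Spry4 and Etv5 read below it without passing, while Etv4, Jun and Egr1 passed as lower. The 2 higher targets were Etv1, the third PEA3 factor, at 6.47 and 14.5 (log2 1.11), and the ephrin receptor Epha4 at 4.14 and 13.4 (log2 1.59). In the libraries without Dox, 27 of the 31 tested targets stood below the library with Dox at 48 hours and 25 at 96 hours. The same counts over all tested genes were not made. In the second pair, in which both libraries had PD0325901, 21 of 31 were lower and 2 higher, beside 15.6% and 3.73% of all genes. The median of the targets there was -1.43, beside -0.27 over all genes. In the common test 2 of 32 were higher and 12 lower, beside 11.7% and 7.59% of all genes. Jun was among the lower, with a log2 fold change of -2.47 ± 0.17 (edgeR adjusted p = 0.00851). Epha4 was among the higher, with 1.91 ± 0.18 (edgeR adjusted p = 0.00851).

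**Figure D3:**
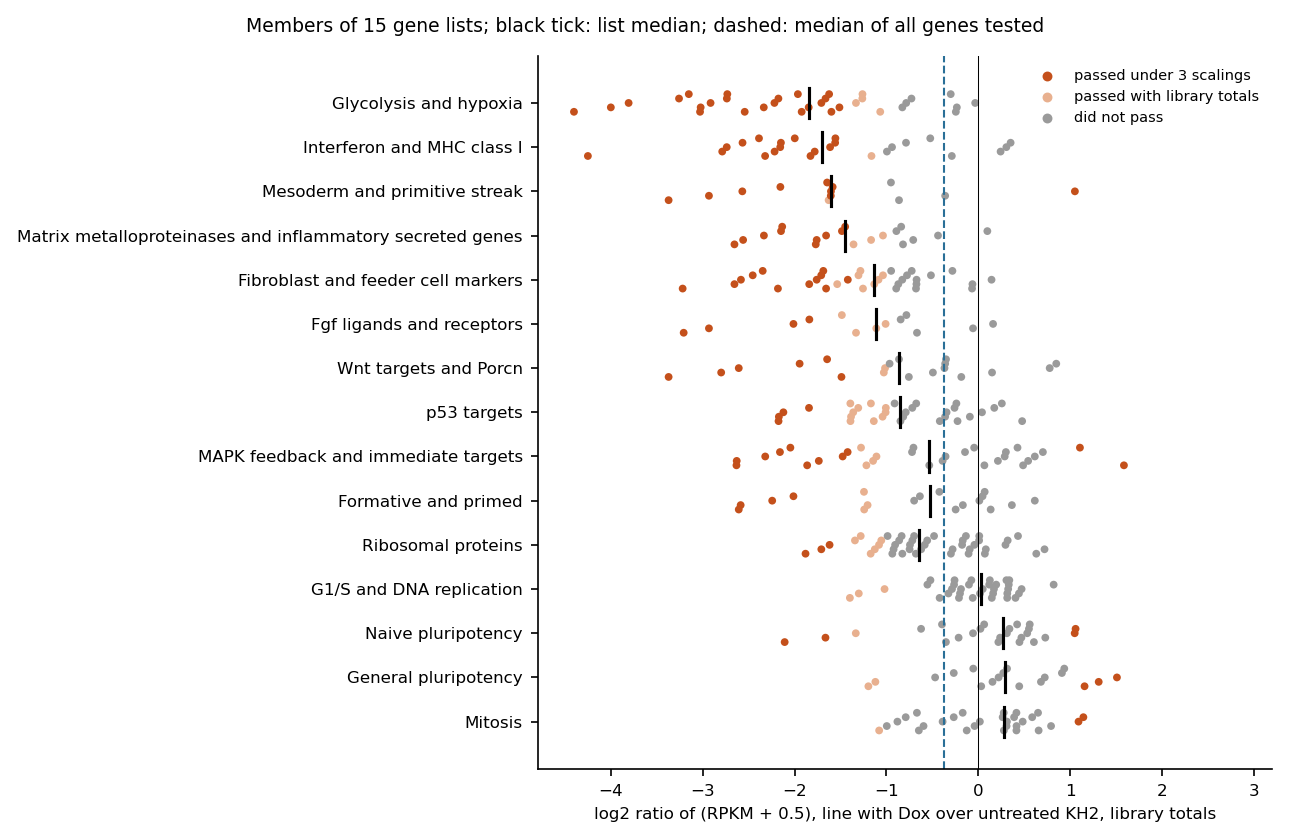
Log2 ratio of RPKM plus 0.5, line with Dox over untreated KH2 (x axis), for each tested member of 15 gene lists (y axis), with a black tick at each list's median and a dashed line at the median of all genes tested, -0.37. The medians of glycolysis and hypoxia (-1.85), interferon and MHC class I (-1.70) and mesoderm (-1.61) lie farthest left, and those of the pluripotency lists lie right of the dashed line at 0.28 and 0.29.

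Glycolysis and hypoxia genes were lower as a group. Of 34 genes 33 could be tested, and 26 were lower and none higher by totals, beside 21.4% lower over all genes. Under all 3 scalings 22 were lower, beside 9.03%. The median log2 ratio was -1.85 by totals, -1.39 by TMM and -1.44 after GC centring. Summed over the list, RPKM was 12675 in KH2 and 6015 in the line with Dox.

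The promoters of 3 of these genes and of B2m, which is described further on, are printed because their letters hold the element of the matching response. Bases run from 250 before to 50 after the start, from RefSeq on GRCm38.p6, a later build than the one used for the reads. Capitals mark the core of the hypoxia response element, ACGTG, on either strand for Bnip3, Ankrd37 and Egln3, and the core of the interferon-stimulated response element, GAAA and GAAA with any 2 bases between them, for B2m. In Bnip3 2 matches on opposite strands overlap in 1 run of capitals.
Bnip3, chr7:138909457-138909756, minus strand: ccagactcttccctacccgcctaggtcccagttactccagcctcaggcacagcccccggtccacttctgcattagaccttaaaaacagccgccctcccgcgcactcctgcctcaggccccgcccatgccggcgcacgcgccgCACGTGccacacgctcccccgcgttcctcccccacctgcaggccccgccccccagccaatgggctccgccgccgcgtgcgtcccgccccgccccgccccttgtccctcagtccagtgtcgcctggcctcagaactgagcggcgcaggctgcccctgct
Ankrd37, chr8:45999801-46000100, minus strand: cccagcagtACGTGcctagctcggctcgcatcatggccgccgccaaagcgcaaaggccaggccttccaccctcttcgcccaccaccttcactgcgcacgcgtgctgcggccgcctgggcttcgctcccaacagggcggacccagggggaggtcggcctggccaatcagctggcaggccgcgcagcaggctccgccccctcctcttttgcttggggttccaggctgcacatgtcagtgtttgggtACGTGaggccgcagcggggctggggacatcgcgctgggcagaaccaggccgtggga
Egln3, chr12:54203825-54204124, minus strand: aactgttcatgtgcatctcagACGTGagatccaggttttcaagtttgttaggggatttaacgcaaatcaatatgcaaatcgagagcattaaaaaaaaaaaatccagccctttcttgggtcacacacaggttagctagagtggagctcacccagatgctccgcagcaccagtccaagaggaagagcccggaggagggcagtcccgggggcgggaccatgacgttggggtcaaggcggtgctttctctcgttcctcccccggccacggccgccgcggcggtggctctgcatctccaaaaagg
B2m, chr2:122147437-122147736, plus strand: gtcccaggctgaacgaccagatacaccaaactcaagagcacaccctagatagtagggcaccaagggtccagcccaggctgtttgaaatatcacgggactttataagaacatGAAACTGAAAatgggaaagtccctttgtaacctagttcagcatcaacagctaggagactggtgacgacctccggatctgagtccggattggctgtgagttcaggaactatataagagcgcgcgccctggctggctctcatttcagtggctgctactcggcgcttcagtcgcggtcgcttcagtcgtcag

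ACGTG was found in 18 of 31 matched promoters of tested hypoxia list members (58.1%), beside 26.5% of the 9898 promoters of all tested genes and 19.7% of all 27025 promoters in the table. Of 21 matched promoters of members lower under all 3 scalings, 14 (66.7%) held it; the promoter of Adm, a gene described next, did not. The CArG box, the element of serum response factor, was searched in the same way in the Erk targets. It stood in 1 of 22 matched promoters of tested targets, beside 1.22% of promoters of all tested genes, and in none of the 6 of targets lower under all 3 scalings. A match is a run of letters and was not tested as a binding site.

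The steepest of the hypoxia genes are regulators and stress proteins rather than enzymes of glycolysis. Adm, which encodes the vasodilator adrenomedullin, read 23.1 RPKM in KH2, 36.7 in KH2 with PD0325901, 0.616 in the line with Dox, and 0.522, 3.56 and 4.27 without Dox. It was 37.5-fold lower with Dox (18.8 to 87.7, from 290 and 8 reads). Ddit4, an inhibitor of the growth kinase mTORC1, read 288, 227, 17.5, 11.3, 30.5 and 26.9 in the same order, and was 16.4-fold lower (14.6 to 18.6). Every library of the line stood below both KH2 libraries for these 2 genes. Bnip3, whose product directs mitochondria to autophagy, behaved differently over time. It read 279 and 326 in the KH2 libraries, 31.0 with Dox, 67.0 without Dox for 48 hours, and 244 and 276 at 96 hours without and with PD0325901. Bnip3 was 9.02-fold lower with Dox (8.23 to 9.90), and the 96 hour libraries lay near the KH2 level. Ankrd37 (40.7 and 3.81, 10.7-fold lower, 7.47 to 15.8) and Ndrg1 (45.4 and 2.78, 16.3-fold lower, 13.0 to 20.9) followed the same course, with 24.7 and 49.3 at 96 hours without Dox. Egln3, a prolyl hydroxylase that marks Hif subunits for degradation, read 55.2 and 6.31, 8.73-fold lower (7.41 to 10.4), and 28.2 at 96 hours.

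Genes of glucose uptake and of the steps of glycolysis were lower by smaller factors. Slc2a1, a widely expressed glucose transporter, read 484 RPKM in KH2, 345 with PD0325901, 127 in the line with Dox, and 93.8, 112 and 105 without it. It was 3.80-fold lower with Dox (3.65 to 3.96), and all 4 libraries of the line lay below both of KH2. Pgk1, phosphoglycerate kinase, was 3.91-fold lower (3.81 to 4.01) on 27490 and 7287 reads. Eno1, an enolase, read 487 and 149, and Gpi1, glucose phosphate isomerase, 519.6 and 182, both robust to scaling. Ldha, lactate dehydrogenase, read 1467 and 612 (log2 -1.26) and Aldoa, an aldolase, 1529.5 and 637 (log2 -1.26), but neither passed by TMM or after GC centring. The 7 tested members that did not pass were Hk1, Hk2, Pkm, Pgam1, Gapdh, Pdk1 and Pfkfb4. Hk2, a hexokinase, read 68.1 and 66.5, and Pkm, pyruvate kinase, 2113 and 1717.

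**Figure D4:**
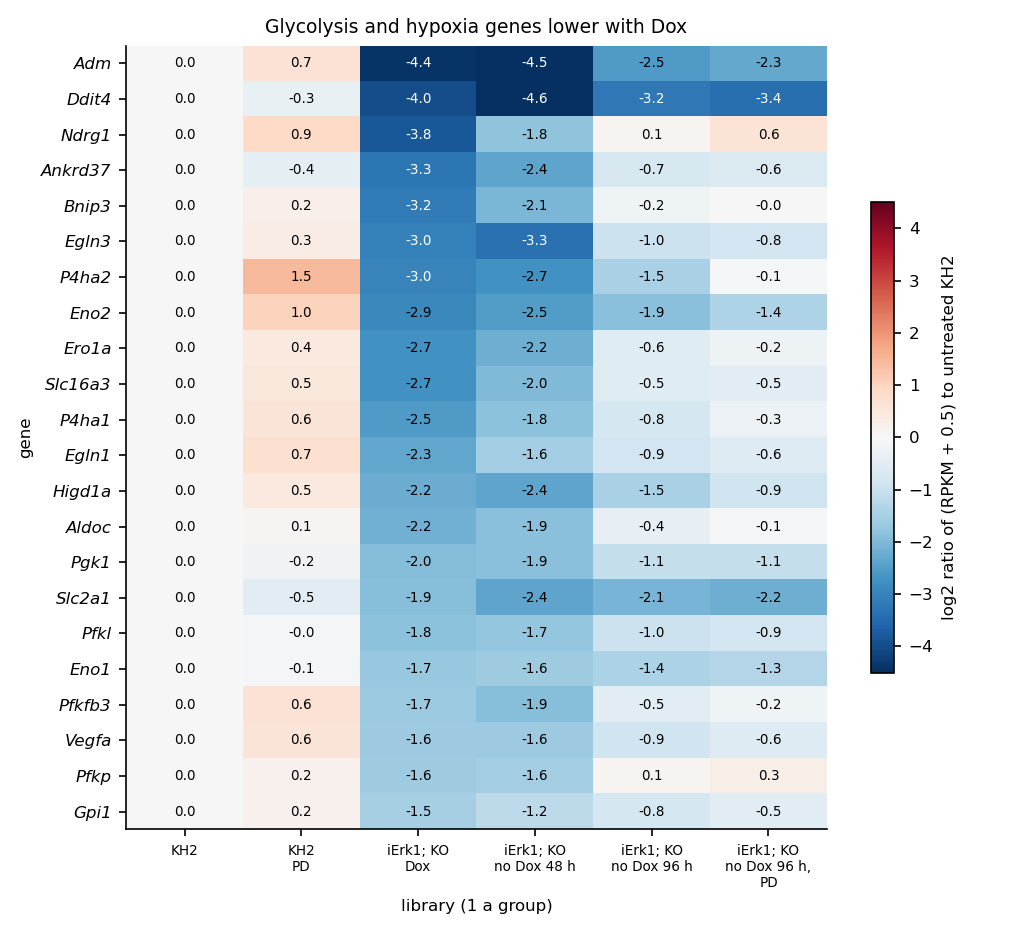
Log2 ratio of RPKM plus 0.5 to untreated KH2 (colour, and the number in each cell) for the 22 glycolysis and hypoxia genes lower with Dox under all 3 scalings (y axis) in each library (x axis). The column with Dox is negative by the choice of genes; Bnip3 moves from 31.0 RPKM with Dox to 244 at 96 hours without it, and Slc2a1 from 127 to 112.

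Relative to the line with Dox, 23 of the 33 tested genes were higher in the library without Dox at 48 hours and 30 at 96 hours. At 96 hours 28 of 33 still stood below untreated KH2. The same counts over all tested genes were not made, and the median log2 ratio over all genes was -0.37 in the first pair. The Dox library, the reference for the counts above it, is also the library in which the list was found low. In the second pair 12 of 34 passed as lower and none as higher, beside 15.6% and 3.73% of all genes. The median there of the 33 members tested in the first pair was -0.83, beside -0.27 over all genes. In the common test 17 of 34 were lower, beside 7.59% of all genes. They were led in certainty by Ddit4 at a log2 fold change of -3.21 ± 0.25 (edgeR adjusted p = 0.00851). Bnip3 at -1.34 ± 0.65 did not pass (edgeR adjusted p = 0.183). Outside the list, Ndufa4l2, a mitochondrial protein induced in hypoxia, had the lowest log2 ratio, -4.74, of the passing genes with at least 100 reads and a proper name. It read 61.7 RPKM in KH2, 93.1 with PD0325901, 1.83 in the line with Dox, and 4.29, 35.8 and 40.1 without Dox. The carbonic anhydrase Car12 (9.68 and 0.343) and the glycogen phosphorylase Pygl (9.24 and 0.226) were also among the 15 lowest. Oxygen supply, cell density and medium were not recorded in the labels, and their part was not tested.

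Interferon-stimulated and MHC class I genes were lower as a group with Dox, and in the second pair their median was above 0. Of 28 genes 24 could be tested, and 16 were lower (66.7%, beside 21.4% of all genes) and none higher by totals, 15 under all 3 scalings (62.5%, beside 9.03%). The median was -1.70 by totals, -1.38 by TMM and -1.58 after GC centring. Among the antigen presentation genes, H2-K1, an MHC class I heavy chain, read 37.2 RPKM in KH2, 71.4 with PD0325901, 5.86 in the line with Dox, and 6.55, 34.3 and 39.6 without it. It was 6.35-fold lower with Dox (5.08 to 8.0). B2m, the light chain of MHC class I, read 87.1, 226, 29.2, 49.4, 95.2 and 181, and was 2.98-fold lower (2.56 to 3.47). For both, the level at 96 hours without Dox was close to that of untreated KH2. Tap1, a peptide transporter, read 8.84 and 1.37, and Psmb9, an immunoproteasome subunit, 7.51 and 0.659, both robust to scaling.

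Several antiviral genes stood above the KH2 level at 96 hours. Bst2, also known as tetherin, read 63.8 RPKM in KH2, 11.8 with Dox, 12.7 at 48 hours, and 126 and 134 at 96 hours without and with PD0325901. Usp18, which removes Isg15 from proteins, read 2.10 in KH2, 0.0598 with Dox (1 read), 1.22 at 48 hours and 21 at 96 hours. Isg15 had 62 reads in KH2 and none with Dox, at least 21.4-fold lower against a floor of 3 reads, with an exact 95% interval that starts at 16.9-fold. It had the lowest log2 ratio of the list (-4.25) and read 23.3 RPKM at 96 hours. All 24 tested genes stood above the Dox library at 96 hours, and 16 stood above untreated KH2. The same counts over all tested genes were not made, and the Dox library is the one in which the list was found low. In the second pair 10 of 28 passed as higher and 4 as lower, beside 3.73% and 15.6% of all genes. The median there of the 24 members tested in the first pair was 0.53. The common test called 3 of 28 higher (Ddx58, Ifitm2 and Ifitm3) and 2 lower (Tap1 and Tap2), beside 11.7% and 7.59% of all genes. The list's median thus had opposite signs in the 2 pairs, and the difference between the pairs was not tested. The letters of the interferon-stimulated element, searched on both strands, stood in 9 of 21 matched promoters of tested members (42.9%), beside 2.69% of promoters of all tested genes, and in 5 of 13 (38.5%) of members lower under all 3 scalings. The promoters of Psmb9 and Tap1 did not hold them. H2-Ab1, a chain of MHC class II and outside this list, read 9.96 in KH2 and 0.0891 with Dox (108 reads and 1 read).

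**Figure D5:**
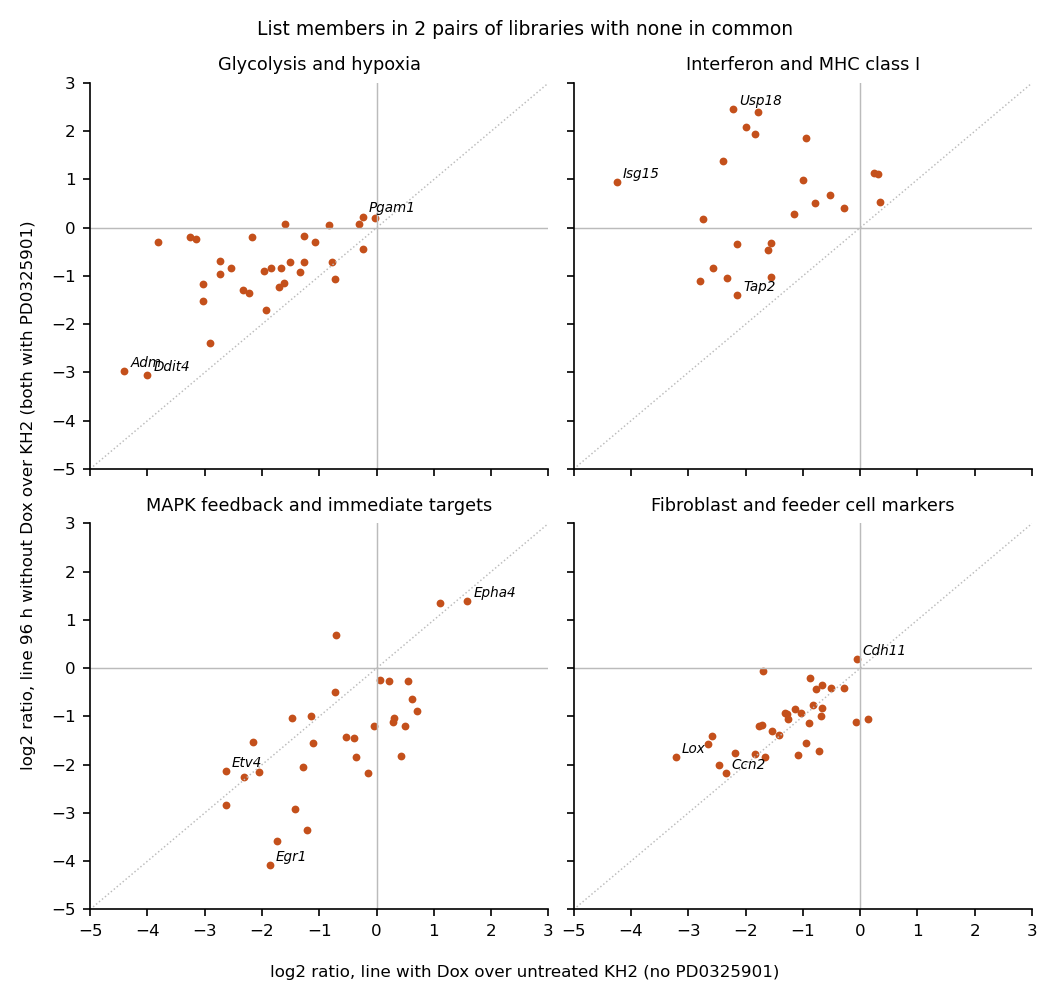
Log2 ratios of list members in the first pair (x axis, line with Dox over untreated KH2) and the second pair (y axis, line without Dox for 96 hours over KH2, both with PD0325901), 1 panel a list. Glycolysis and hypoxia genes lie below 0 in both pairs by median (-1.85 and -0.83), and interferon and MHC class I genes have a negative median on the x axis and a positive one on the y axis (-1.70 and 0.53).

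Primitive streak and mesoderm genes, which a minority of wild-type ESCs in culture can express, were lower in the line. In bulk RNA, fewer cells of a type and less RNA per cell cannot be told apart. Of 22 genes with reads 13 could be tested, 9 were lower (69.2%, beside 21.4% of all genes) and 1 was higher, and under all 3 scalings 8 (61.5%, beside 9.03%) and 1. The median was -1.61. T, the primitive streak factor brachyury, read 11.7 RPKM in KH2, 6.97 with PD0325901, 0.675 in the line with Dox, and 0.302, 0.245 and 0.0497 without it. No library of the line overlapped with KH2, and T was 17.3-fold lower with Dox (9.89 to 33.0, from 217 and 13 reads). In the common test its log2 fold change was -4.51 ± 0.61 (edgeR adjusted p = 0.0108). Wnt3, the ligand that starts streak formation, read 2.79 and 0.239, and Wnt8a 4.13 and 0.280. Fgf8 had 38 reads in KH2 and none with Dox, at least 13.1-fold lower against the floor, with an exact 95% interval that starts at 10.2-fold. Bmp4, an inducer of mesoderm, was the exception at 6.68 and 14.4 (log2 1.05). Bmp4 went the other way in the second pair, from 2.66 to 0.918 (log2 -1.16).

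Genes of the signals that drive streak formation were lower in part. Of 19 tested Wnt targets with Porcn, 8 were lower (42.1%, beside 21.4% of all genes) and none higher, 6 under all 3 scalings (31.6%, beside 9.03%). Sp5, a direct Wnt target, read 4.04 and 0.152 RPKM, Lef1 16.5 and 2.30, and Porcn, an X-linked enzyme that lipidates Wnt proteins, 50.4 and 12.7. Of 17 tested Nodal pathway genes 7 were lower by totals, and by TMM 3 were lower and 2 higher. Under all 3 scalings 2 were lower (11.8%, near the 9.03% of all genes), the Nodal antagonists Lefty1 and Lefty2. Lefty1 read 65.6 RPKM in KH2, 63.0 with PD0325901, 6.09 with Dox, and 22.7, 11.9 and 10.7 without it, and was 10.8-fold lower with Dox (8.69 to 13.5). Lefty2 read 75.3, 139.9, 23.4, 71.7, 172 and 142, so it was 3.22-fold lower with Dox (2.92 to 3.55) and above KH2 at 96 hours. Of 13 tested Fgf ligands and receptors 8 were lower (61.5%), 4 under all 3 scalings (30.8%; Fgf15, Fgf8, Fgf5 and Fgf17). Fgf15 read 17.2 and 1.41, 12.2-fold lower (8.01 to 19.3), while Fgf4, the main Fgf of ESCs, read 58.5 and 56.2 and did not pass. Of 15 tested BMP pathway genes 1 was higher (Bmp4) and 4 lower (26.7%, near the share over all genes; Bmp7, Smad6, Id3 and Grem1), with Id3, a BMP target, at 32.6 and 4.63.

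Formative and primed genes, which mark the step after the naive state, were lower or did not pass by totals. Of 18 tested 7 were lower (38.9%, beside 21.4% of all genes), 4 under all 3 scalings (22.2%, beside 9.03%). By TMM 1 was higher and 4 lower. In the second pair 4 of 17 were higher and 2 lower, beside 3.73% and 15.6% of all genes. The common test called 1 of 19 lower and none higher, beside 7.59% and 11.7% of all genes. Pou3f1, a factor of the primed epiblast, read 12.6 and 2.26 RPKM, 5.56-fold lower (4.25 to 7.38). Otx2, another such factor, read 26.9 RPKM in KH2, 18.8 with PD0325901, 11.1 with Dox, and 23.6, 47.3 and 41.6 without it. Otx2 was 2.43-fold lower with Dox by totals and did not pass by TMM (log2 -0.80). The de novo methyltransferases Dnmt3a (32.0 and 33.1) and Dnmt3b (80.5 and 71.6) did not pass, and of 18 tested genes of DNA methylation 2 were lower, Dppa3 and Mbd1, and Dppa3 under all 3 scalings.

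The count of naive pluripotency genes that were higher depended on the scaling. Of 24 tested 2 were higher and 3 lower (Dppa3, Dppa5a and Tcl1) by totals, 6 and 2 by TMM, 8 and 2 after GC centring, and 2 and 2 under all 3 scalings. Over all genes 2.76% were higher by totals, 9.37% by TMM and 6.19% after GC centring. The median of the list was 0.28 by totals, 0.66 by TMM and 0.49 after GC centring. Klf5 read 59.9 and 125 RPKM (log2 1.05) and Tfcp2l1, a target of LIF and Stat3 signalling, 24.8 and 52.2 (log2 1.06). Klf4 (67.9 and 100.4) and Esrrb (82.4 and 111) did not pass by totals; Klf4 passed as higher by TMM at a log2 ratio of 1.02, and Esrrb after GC centring at 1.05. Dppa3, an egg and germ cell factor, read 38.1 RPKM in KH2, 73.6 with PD0325901, 8.45 with Dox, and 92.2, 73.1 and 81.9 without it. It was 4.51-fold lower with Dox (3.43 to 6.00), and the library with Dox stood alone below the other 5. Dppa5a was 3.17-fold lower (3.05 to 3.30, from 9986 and 3261 reads); it has similar copies in the genome, which makes its unique reads uncertain. Nanog read 122 and 105 RPKM in the 2 libraries and 397 without Dox for 48 hours.

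Of 18 tested general pluripotency genes 3 were higher and 2 lower, and the 3 higher were robust to scaling. Dppa4 read 80.3 and 229.7 RPKM, 2.86-fold higher (2.67 to 3.07), L1td1, an RNA-binding protein, 182 and 454, and Fbxo15 35.2 and 79.3. All 3 were higher in the second pair and in the common test, L1td1 with a log2 fold change of 1.78 ± 0.15 (edgeR adjusted p = 0.00851). Utf1 (262 and 114) was lower by totals only. Of 17 tested LIF and Stat3 genes 1 was higher and 3 lower under all 3 scalings; the lower ones were Lif (7.48 and 1.43), the feedback inhibitor Socs1 (5.75 and 0.714) and the kinase Pim1 (77.9 and 26.6). The lineage lists are read beside 2.76% higher and 21.4% lower over all genes by totals, and 9.03% lower under all 3 scalings. There, 3 of 13 neuroectoderm genes were higher (Sox1 at 0.409 and 4.19, Pax6 at 0.970 and 3.31, and Olig2 at 5.14 and 11) and 2 lower (Tubb3 and Nefl). Of 15 tested trophoblast genes 6 were lower under every scaling, led by Ascl2 (6.28 and 0.330) and the keratin Krt19 (36.2 and 4.86). Primitive endoderm genes had 3 of 18 lower (Amn, Cited1 and Sox17), 16.7% and thus no more than over all genes, and 1 of them (Amn) was robust to scaling. Germline genes had 7 of 20 lower by totals, and 4 (20%) under all 3 scalings. Only 4 of 18 genes of the 2-cell-like state with reads could be tested. By totals 3 of these were lower (Zscan4d, Gm8300 and Sp110), and Zscan4d did not pass by TMM, where 1 member was higher. Summed over the 18 genes, RPKM was 83.6 in KH2 and 129 in the line with Dox. The common test called 1 of 11 higher and none lower, beside 11.7% and 7.59% of all genes.

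Markers of fibroblasts and feeder cells moved with these differences. Of 35 markers 33 could be tested, and 19 were lower (57.6%, beside 21.4% of all genes), 12 of them under all 3 scalings (36.4%, beside 9.03%), and none was higher. The median was -1.13. Summed over the list, RPKM was 1945 in untreated KH2, 6464 in KH2 with PD0325901, 779 in the line with Dox, and 816, 920.0 and 2288 in the line without Dox for 48 hours, for 96 hours, and for 96 hours with PD0325901. None of the 35 was at 0 in the line with Dox. Lox, an enzyme that cross-links collagen and is also induced in hypoxia, read 94.0 and 9.64, 9.74-fold lower (8.69 to 11). Col1a1, the main fibroblast collagen and also the usual site of the inducible transgene in KH2 cells, read 96.4 RPKM in KH2, 878 with PD0325901, 17.2 with Dox, and 17.7, 25.9 and 218 without it. It was 5.62-fold lower with Dox (5.20 to 6.08). Vim (372 and 225), Thy1 (20.6 and 16.9) and Cdh11 (9.37 and 8.95) did not pass. In the second pair 20 of 34 were lower, beside 15.6% of all genes, and in the common test 18 of 35, beside 7.59%. Whether feeder or differentiated cells entered any library was not given, and their part in the other lists was not tested.

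Secreted and matrix genes were also lower in part. Of 19 tested metalloproteinases and inflammatory genes 13 were lower (68.4%, beside 21.4% of all genes), 10 under all 3 scalings (52.6%, beside 9.03%), including the cytokine Il6 (4.76 and 0.391) and the chemokine Ccl2 (36.4 and 7.91). Of 29 tested collagens and matrix assembly genes 13 were lower (44.8%), 9 under all 3 scalings (31.0%), including Loxl2 (55.5 and 6.95). Igfbp2, which binds insulin-like growth factors, had 5420 and 866 reads, 6.48-fold lower (6.03 to 6.97), among 6 lower and 1 higher (Igf2bp3) of 14 tested Igf genes. Igfbp2 was 1 of 2 lower Igf genes that were robust to scaling (14.3%, beside 9.03% of all genes). Smooth muscle and cytoskeleton genes had 6 of 30 lower by totals and 2 (6.67%) under all 3 scalings, shares no greater than over all genes. Epithelial markers had 4 of 12 lower, Krt19, Ovol1 and the claudins Cldn7 (19.2 and 3.24) and Cldn6 (52.7 and 11). Blood and endothelial markers had 5 tested, of which 1 was higher (Lyz2) and 3 lower (Cd34, Tek and Cd68). Ephrins and their receptors had 1 higher (Epha4) and 6 lower of 14. Of these lower genes, 3 epithelial, 1 blood or endothelial and 2 ephrin list members were robust to scaling. Their shares were 25%, 20% and 14.3% of those tested, beside 9.03% of all genes.

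Y-linked and X-inactivation genes separated the 2 lines. Of 7 Y chromosome genes with reads 3 could be tested, and all 3 were lower under every scaling. Eif2s3y, a translation factor subunit, had 352 and 377 reads in the KH2 libraries and 16, 8, 10 and 19 in the 4 of the line, 22.8-fold lower with Dox (13.8 to 40.3). Ddx3y read 6.57 RPKM in KH2 and 0.298 with Dox, and Uty 3.03 and 0.122. No library of the line overlapped with KH2 in any of the 3, and the share of all genes separated in this way was not counted. The common test gave Eif2s3y a log2 fold change of -4.12 ± 0.28 (edgeR adjusted p = 0.00851). Xist, the RNA that coats the inactive X chromosome, was low in both, with 391 and 66 reads, 6.13-fold lower (4.71 to 8.09). Copies of the Y chromosome were not measured.

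By chromosome, the ratios of genes on 19 stood above the rest under every scaling, and those on 8 only after GC centring. After GC centring the median log2 ratio was 0.38 over 436 genes of chromosome 19, of which 70.2% lay above 0, and 0.20 over 679 genes of chromosome 8 (60.4% above 0). The other 18 medians, leaving out Y, ran from -0.18 to 0.02. Chromosomes 19 and 8 stood at 0.43 and 0.16 in the second pair, and the others between -0.15 and 0.10. With library totals the medians were -0.07 for chromosome 19 and -0.23 for chromosome 8, against -0.50 to -0.16 for the others. By TMM they were 0.36 and 0.21, against -0.07 to 0.23. Chromosome 8 thus stood within the range of the others under both scalings. In the second pair chromosome 6 stood above chromosome 8 by totals (-0.10 and -0.13) and by TMM (0.19 and 0.16). Copy number was not measured.

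The p53 targets and stress genes gave mixed counts. Of 31 tested p53 targets 14 were lower (45.2%, beside 21.4% of all genes) and none higher by totals, but 4 by TMM and under all 3 scalings (12.9%, near the 10.8% and 9.03% of all genes): Bbc3, Btg2, Dcxr and Phlda3. After GC centring 9 of the 31 were lower, beside 11.3% of all genes. The common test called 10 of 31 lower and 1 higher, beside 7.59% and 11.7% of all genes. Bbc3, a cell death activator, read 25.6 and 5.27 RPKM. Cdkn1a, the cell cycle inhibitor p21, read 72.3 RPKM in KH2 and 27.8 with Dox and passed by totals only, while Trp53 itself read 142 and 197. Of 7 tested CDK inhibitors 1 was lower by totals (Cdkn1a) and none under all 3 scalings. Apoptosis genes had 9 of 25 lower, 4 under all 3 scalings: Bok (10.5 and 1.71), Bik, Casp6 and Bbc3. Amino acid and endoplasmic reticulum stress genes had 1 higher and 9 lower of 27 by totals (33.3% lower, beside 21.4% of all genes). The lower ones fell to 3 under all 3 scalings (11.1%, near the 9.03% of all genes). In the common test 3 of 29 were higher and 7 lower, beside 11.7% and 7.59% of all genes. The higher one by totals was Atf4, the central factor of that response, at 167 and 354. Heat shock genes had 2 higher (Dnaja1 at 49.7 and 119, Hsph1 at 43.2 and 87.1) and 3 lower of 20 (Hspa1a, Hspa1b and Cryab).

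Cell cycle genes were even or slightly higher. First-pair counts of the lists in this paragraph are read beside 2.76% higher and 21.4% lower over all genes by totals. Of 29 tested mitosis genes 2 were higher (Incenp at 70.1 and 150.1, Mad2l1 at 43.6 and 97) and 1 lower (Cenpa), with a median of 0.28 beside -0.37 over all genes. The common test, whose TMM scaling centres all genes near 0, called 16 of 29 higher and none lower, beside 11.7% and 7.59% of all genes. Of 34 G1/S and replication genes none was higher and 3 were lower in the first pair (Ccnd2, E2f1 and Rb1), and the common test called 14 higher and 1 lower. Of 38 repair genes 1 was higher in the first pair (Xrcc5, at 72.2 and 147), and 13 in the common test, with none lower in either. The median GC content of the mitosis, G1/S and repair lists was 47.3%, 49.2% and 47.1%. TMM leaves the GC gradient in place, with first-pair medians of 0.43 in the decile with the least GC and -0.45 in that with the most. The part of GC content in these counts of the common test was not tested. Telomere genes had 2 higher (Dkc1, of the telomerase complex, at 68.5 and 168, and Pinx1 at 14.7 and 31.6) and 1 lower of 24, which was Tert at 5.88 and 2.36. Polycomb and Trithorax genes had 2 higher (Ezh2 at 67.0 and 139, Bmi1 at 1.99 and 7.33) and 1 lower of 23 (Phf1), which is 8.70% and 4.35%.

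Few genes of mitochondrial and cholesterol lists passed by totals, where 2.76% of all genes were higher and 21.4% lower. Mitochondrial translation had no passing gene among 25 by totals, with a median of 0.06. By TMM 6 were higher and after GC centring 5, beside 9.37% and 6.19% of all genes. Cholesterol synthesis had 1 higher of 23 (Nsdhl) by totals, 4 by TMM and 3 after GC centring, and none lower. In these lists the common test called 5 of 25 and 9 of 24 higher, beside 11.7% of all genes, and none lower. The nuclear respiratory chain had 1 higher (Uqcrb, 817 and 2849 reads) and 3 lower of 28 (Ndufa2, Cox5a and Cox7a2), of which Ndufa2 (397 and 87 reads) was robust to scaling. Ribosomal proteins had 9 lower of 42 by totals, the same share as over all genes, and 3 under all 3 scalings (Rps19, Rps20 and Rpl37); such genes have many processed copies, which unique counting can split. Histone genes had 6 lower of 11 by totals (54.5%, beside 21.4%) and 4 under all 3 scalings (36.4%, beside 9.03%), with a median of -1.22; their polyA levels cover only part of their RNA. Of 35 imprinted genes 3 were higher (Ube3a, Kcnq1ot1 and Zrsr1) and 12 lower (34.3%), 2 and 8 (22.9%) under all 3 scalings. The 8 included Phlda2 (65.7 and 15.4) and Ndn (10.5 and 2.64), while H19 (7.03 and 5.97), Igf2 (15.4 and 24.8) and Meg3 (19.8 and 11.2) did not pass.

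The genes with the highest ratios of all were of mixed function. Nlrp4f, an oocyte-expressed gene of a family with similar copies, read 1.34 RPKM in KH2 and 10.4 with Dox, 7.75-fold higher (5.63 to 10.9). Mras, a Ras-like GTPase, read 1.84 and 11.8, and Eya1, a phosphatase of development, 0.758 and 5.13. Among more abundant genes, Hells, a remodeller needed for DNA methylation, read 132 RPKM in KH2, 104 with PD0325901, 513 in the line with Dox, and 435, 445 and 368 without it. Every library of the line stood above both KH2 libraries, and Hells was 3.88-fold higher with Dox (3.74 to 4.02). Ppig, a nuclear cyclophilin, read 23.8, 21, 100.4, 88.9, 76.4 and 75.9 in the same order, with the same separation. In the common test Hells had a log2 fold change of 2.23 ± 0.16 and Ppig of 2.31 ± 0.17 (edgeR adjusted p = 0.00851 for each). Apela, a secreted peptide hormone, read 15.9 and 67.0 (log2 2.04). At the other end, Plac8 read 32.6 and 0.916, and Nos2, the inducible nitric oxide synthase, had 203 reads in KH2 and 1 with Dox.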

How the data were processed

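The labels' protocols give single-end sequencing of polyA RNA with 50 bases a read, for 6 libraries. The authors deposited, per the file headers, a count of uniquely mapped reads per gene, which sums to the library total. The deposited RPKM was computed by the authors from that count, the gene length and the total; recomputing it returned the deposited value for each gene. The percent of each gene's length covered by reads was also deposited by the authors. The submitters' processing notes name the build mm9; the aligner and annotation are not given in the sources used here. Strands were not separated.

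Files were joined by NCBI gene ID; a gene without a row was set to 0 reads. Symbols for 18805 of 18857 genes came from RefSeq, and 41 gene lengths differed between files. Comparisons of single libraries used the size rule given with the results, and no p-value. Library totals were the main scaling. TMM, median-of-ratios and GC-decile centring were alternatives, the last added after a GC gradient was seen; 97.8% of tested genes had a GC value, from the GENCODE transcript closest in length. The common test used edgeR 4.0.16 in R 4.3.3 on genes with at least 20 reads (common dispersion 0.0423), and DESeq2 1.42.0 was an alternative. The SE printed with edgeR fold changes was computed as the size of the log2 fold change over the square root of F. It is not a spread over replicates. Python 3.11.15 did the rest. The size rule and common test were tested on simulated data. Reads had no molecular identifiers, so intervals and the floor of 3 reads cover counting error only.

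Members and the 44 gene lists were chosen with earlier results of these data known, and some genes are in several lists. Named genes were the 15 highest and 15 lowest passing genes with at least 100 reads and a proper name, up to 4 passing members per list, a fixed set of Erk, pluripotency, imprinted and cell cycle genes, the 10 highest and lowest of the common test, and passing neighbours of Mapk3 and other loci. Other list members that the text names were picked from the lists after their values were seen, and not all 213 genes that the rule names are printed. The mitochondrially encoded genes had no reads and are not counted among the lists. A few genes under this rule are not reported here.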

Additional observations from a re-analysis of the deposited data

Results flagged for a closer look

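For 10 list members the ratio of the line over wild type passed the size rule in opposite directions in the 2 pairs. For 9 it was lower with Dox against untreated KH2 and higher without Dox for 96 hours against KH2, both with PD0325901. Of the 9, 5 were interferon-stimulated genes, for which the second log2 ratio exceeded the first by 4.67 (Usp18), 4.19 (Oasl2), 4.09 (Oas1a), 3.78 (Bst2) and 3.77 (Irf7). The second log2 ratio exceeded the first by 3.81 for Car14, a carbonic anhydrase, which read 2.51 and 0 RPKM in the first pair and 0.816 and 2.57 in the second. The gap was 3.18 for the chemokine Cxcl1, with 45 and 7 reads in the first pair and 83 and 190 in the second. It was 2.37 for Igfbp4, at 17.0 and 6.47 and then 21.3 and 44.3, and 2.37 for Otx2, at 26.9 and 11.1 and then 18.8 and 41.6. Bmp4, a ligand that induces mesoderm, went the other way, with a second log2 ratio minus the first of -2.21. The difference between the pairs was not tested for these genes, since each pair is 2 single libraries. Dox, the time without it and PD0325901 all change between the pairs and cannot be told apart. Over all genes, 27 passed as lower in the first pair and higher in the second and 2 (Bmp4 and Cavin2) the other way.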

How the results depend on the processing

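No named gene that passed the size rule changed direction under an alternative. With library totals 343 genes were higher and 2662 lower in the line with Dox; TMM gave 1150 and 1331, median-of-ratios factors 1264 and 1261, and GC-decile centring 754 and 1381. These scalings moved the share of lower calls from 88.6% to 53.6%, 49.9% and 64.7%. Members of the lists, 28 higher and 251 lower, became 83 and 160 by TMM and 68 and 174 by GC centring. In the second pair (472 and 1975), TMM gave 973 and 1109 and GC centring 707 and 1043. The common test (1716 and 1113 by edgeR) gave 872 and 2821 with library totals and 2266 and 1960 over all 6 libraries. Without the block for the pair edgeR called 0 and 0, with 3857 genes at an unadjusted p under 0.05; DESeq2 with the block called 1732 and 807. Beside the median of all genes, chromosome 19 stood at 0.30 by totals and 0.41 after GC centring, and Y, with 4 genes tested, at -2.45, -2.61 (TMM) and -2.80 (GC centring). Pseudocounts of 0.1 and 1 and other read filters left these counts within 1.5 times. The cause of the shifts with GC content was not tested. Of the named genes, 34 lost their call by TMM and 6 gained one, and 32 and 5 did so by GC centring. The labels give no replicate numbers, so the block of the common test was the pair of libraries set by PD0325901 and not a replicate, and with 1 library a group no replicate could be left out. Depth limits genes with few reads, whose intervals are wide: Dusp2, with 30 reads and 1 read, was lower by 5.16 to 1267-fold.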
